A study of Mus musculus with 27 samples.

Results

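The comparison described here is that of *Shank2* heterozygous with wild-type mice at 3 weeks of age, in RNA from the medial prefrontal cortex (PFC). It rests on 10 of the 27 mice of the series, 5 heterozygous (W3-HT) and 5 wild-type (W3-WT), and on the 17047 of 18757 genes whose mean normalized count over these 10 mice was at least 10. Of these genes, 14665 are protein-coding in the GENCODE M21 annotation. The other mice of the series are 5 homozygous mutants of the same age (W3-HM) and 4 mice of each genotype at 12 weeks (W12-WT, W12-HT and W12-HM), and they enter only where named.

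All 27 mice are male, and the labels give their background as C57BL/6. W3-HT mice carry 1 copy, and W3-HM mice 2 copies, of a constitutive *Shank2* allele that lacks exons 6 and 7 in every cell, and W3-WT mice carry none. No mouse was treated. The mutant strain, named B6N.129S4-*Shank2* tm1Mgle/CsbdJ in the study's methods, is a single line. The genes beside *Shank2* on chromosome 7 are inherited with the allele. An effect of the deletion and an effect of the chromosome segment around it therefore cannot be told apart for those genes. Each library came from the brain of 1 mouse and no tissue was pooled. In bulk tissue, fewer cells of a type and less RNA per cell cannot be told apart.

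Shank2 is a scaffold protein of the postsynaptic density, the protein layer beneath the membrane of excitatory synapses. Together with its relatives Shank1 and Shank3 it links NMDA, AMPA and metabotropic glutamate receptors, by way of PSD-95, SAPAP and Homer proteins, to the actin cytoskeleton. In the PFC these synapses lie mostly on the dendritic spines of pyramidal neurons, and the third postnatal week is a time at which many of them form and mature. Loss of 1 copy of *SHANK2* occurs in some people with autism spectrum disorders (ASD), which makes the heterozygous mouse the closer genetic counterpart.

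The values are the authors' normalized counts, estimated per gene and scaled over all 27 samples. Their totals ranged from 29988642 to 30867103 in W3-WT and from 30002774 to 30560600 in W3-HT mice. These totals follow the scaling, and the number of reads behind each mouse is unknown. An SD is the spread between mice, and an SE is the standard error of a log2 fold change from the fit described below. No pair among the 10 columns held identical values, and the correlation of log2 values between mice ranged from 0.9834 to 0.9899. Fold changes are differences of log2(normalized count + 1), which understate the change of genes with low counts. They were tested with limma in a fit of all 15 mice aged 3 weeks, and an adjusted *p* value under 0.05 defined differentially expressed genes (DEGs). For single genes a two-sided exact permutation test of the 10 mice is given as well, in which 0.00794 is the smallest *p* value possible. Nothing in the labels says that the mice came from separate litters.

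Some mice stood apart in ways that bear on the results. Of the 18 activity-regulated genes, 16 were higher in W3-HT mice, 0 of them at an unadjusted *p* value under 0.05 in limma, and their per-mouse median was highest in wild-type mouse 4 and in W3-HT mice 4 and 5. *Arc* was measured at 1402, 2806, 3109, 10122 and 3193 normalized counts in W3-WT mice and at 1898, 4238, 2461, 12886 and 14804 in W3-HT mice. The 9 markers of striatal projection neurons, a cell type beneath the cortex, also varied from mouse to mouse. *Drd2*, the D2 dopamine receptor, ranged from 69.1 to 706 in W3-WT and from 175 to 622 in W3-HT mice. Among the 9, 9 were higher in W3-HT mice and 0 had an unadjusted *p* value under 0.05 in limma, with a median log2 fold change of 0.459. Their summed level was 7120 to 23770 in W3-WT and 9750 to 24580 in W3-HT mice. The part of dissection in the results that follow was not tested. Markers of the labelled tissue were present. *Slc17a7*, the vesicular glutamate transporter of cortical pyramidal neurons, was measured at 46155 to 55964 in W3-WT and at 48009 to 51920 in W3-HT mice. Above the minimum mean were 14 of 14 glutamatergic and 21 of 21 GABA neuron markers. The 9 striatal markers were above it too, so passing this mean does not tell the tissues apart.

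The targeted gene was lower in each W3-HT mouse than in any W3-WT mouse. *Shank2* (ENSMUSG00000037541, chr7:144001928-144424494, plus strand, GRCm38) was measured at 9261, 9033, 8478, 9257 and 10870 normalized counts in W3-WT mice. The 5 W3-HT mice had 6095, 6889, 6433, 6683 and 7061. The groups did not overlap, and the W3-HT mean was 70.7% of the W3-WT mean (6632 ± 381 against 9380 ± 892, SD, n = 5 each). The log2 fold change was -0.50 (SE 0.08), with an adjusted *p* value of 0.0683 in limma and an exact permutation *p* value of 0.00794. *Shank2* therefore missed the threshold in this fit, whereas in a fit of the 10 mice alone its adjusted *p* value was 0.0132. Across 21 alternatives, 10 of which left out 1 mouse, it ranged from 0.000585 to 0.311 and was past the threshold in 7.

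The level in W3-HT mice lay between those of W3-WT and W3-HM mice. In W3-HM mice *Shank2* was measured at 3567, 3869, 3502, 3663 and 4838, 41.4% of the W3-WT mean. W3-HT mice were higher than W3-HM mice by 0.78 on the log2 scale (SE 0.08, limma, adjusted *p* = 0.000301). The counts are totals per gene, and transcripts that lack the deleted exons are included in them. Which transcript gives exons 6 and 7 their numbers is not stated in the sources used here, so the exon sequences are not shown.

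For the other Shank genes the groups overlapped. *Shank1* was measured at 25567, 24791, 24589, 24117 and 26081 in W3-WT mice and at 23608, 27788, 24904, 26188 and 26859 in W3-HT mice (log2 fold change 0.05, SE 0.06, limma, adjusted *p* = 0.87). *Shank3* was measured at 10663, 10062, 9458, 10107 and 12359 in W3-WT and at 9568, 10796, 10190, 11205 and 11017 in W3-HT mice (0.01, SE 0.07, limma, adjusted *p* = 0.987). The difference was smaller than the spread between mice for both genes, and the sign for *Shank3* turned under quantile normalization, under correction for transcript length and GC content, and on leaving out any 1 of 6 mice.

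A single gene passed the threshold, 0.00587% of the genes tested. It was *Gm26793* (ENSMUSG00000096999, chr7:144894560-144897461, minus strand), an antisense transcript of unknown role whose start lies 896 kb from that of *Shank2*. W3-WT mice had 2.13, 0, 3.15, 0.97 and 0.853 normalized counts, and W3-HT mice 29.0, 32.9, 33.6, 33.1 and 21.6. The gene was nearly silent in wild-type cortex and was measured in 5 of 5 W3-HT mice at more than any wild-type value. The log2 fold change was 3.82 (SE 0.31, limma, adjusted *p* = 9.09e-06), and the exact permutation *p* value was 0.00794. W3-HM mice had 72.4, 75.6, 78.1, 63.0 and 52.8, and the difference of W3-HT from W3-HM mice was -1.16 (SE 0.31, limma, unadjusted *p* = 0.00152, adjusted *p* = 0.246). The call held in 19 of the 19 alternatives in which the gene could be tested, with adjusted *p* values from 3.93e-08 to 0.00229.

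*Gm26793* is transcribed across *Fgf15*, which encodes a secreted fibroblast growth factor, from the opposite strand. In their annotated transcripts, 479 exonic bases are shared, among them the whole of exon 2 of *Fgf15*, which lies inside exon 1 of *Gm26793*. The library kit does not mark strand, so reads from these bases cannot be assigned to one or the other gene. The annotated *Gm26793* transcript has 2732 bases, and where its reads lay was not examined. The exon is shown as a part of the shared bases, in the direction of *Fgf15*, with no base capitalized.
Fgf15 exon 2, chr7:144897116-144897219 (GRCm38, plus strand): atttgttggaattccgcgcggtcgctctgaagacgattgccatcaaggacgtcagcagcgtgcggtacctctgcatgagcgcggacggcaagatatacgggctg
*Fgf15* itself was below the minimum mean and was not tested. It was listed at 0 in 4 of the 5 W3-WT mice and at 0.804 in the other, and at 0.853, 2.52, 0, 2.03 and 4.04 in W3-HT mice. The 2 groups overlapped, and the means were 0.161, 1.89 and 6.67 in W3-WT, W3-HT and W3-HM mice.

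*Bc1* and *Ccnd1*, which lie close to *Gm26793*, were lower in W3-HT mice. *Bc1* (chr7:144914470-144914637, plus strand) is a short noncoding RNA of neurons that is carried into dendrites and is known as a repressor of local translation. It was measured at 280, 429, 405, 436 and 430 in W3-WT mice and at 287, 237, 224, 137 and 254 in W3-HT mice. The groups overlapped by wild-type mouse 1 alone, which was the lowest of its group. The log2 fold change was -0.82 (SE 0.20, limma, unadjusted *p* = 0.000654, adjusted *p* = 0.601; exact permutation *p* = 0.0159). The GENCODE M21 transcript has 168 bases and is shown whole because its longest run of A, in capitals, is the part that can bind the oligo-dT beads by which these libraries were prepared.
Bc1: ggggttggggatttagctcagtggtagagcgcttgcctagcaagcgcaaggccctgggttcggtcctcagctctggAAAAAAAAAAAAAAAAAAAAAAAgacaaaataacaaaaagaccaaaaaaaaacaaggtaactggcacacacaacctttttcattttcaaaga
The gene *LTO1* starts within 1 kb of *Bc1* on the same strand. It was measured at 402 to 527 in W3-WT and at 403 to 580 in W3-HT mice (log2 fold change 0.09, SE 0.12, limma, adjusted *p* = 0.885).

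*Ccnd1* encodes cyclin D1, which drives cells from the G1 to the S phase. It was measured at 1299, 1182, 1228, 1212 and 1185 in W3-WT mice and at 1118, 971, 900, 961 and 955 in W3-HT mice, with no overlap. The log2 fold change was -0.32 (SE 0.07, limma, unadjusted *p* = 0.00039, adjusted *p* = 0.56; exact permutation *p* = 0.00794). The 5 W3-HM mice had 987, 935, 1011, 773 and 832, and W3-HT and W3-HM mice differed by 0.12 (SE 0.07, limma, adjusted *p* = 0.592).

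**Figure D1:**
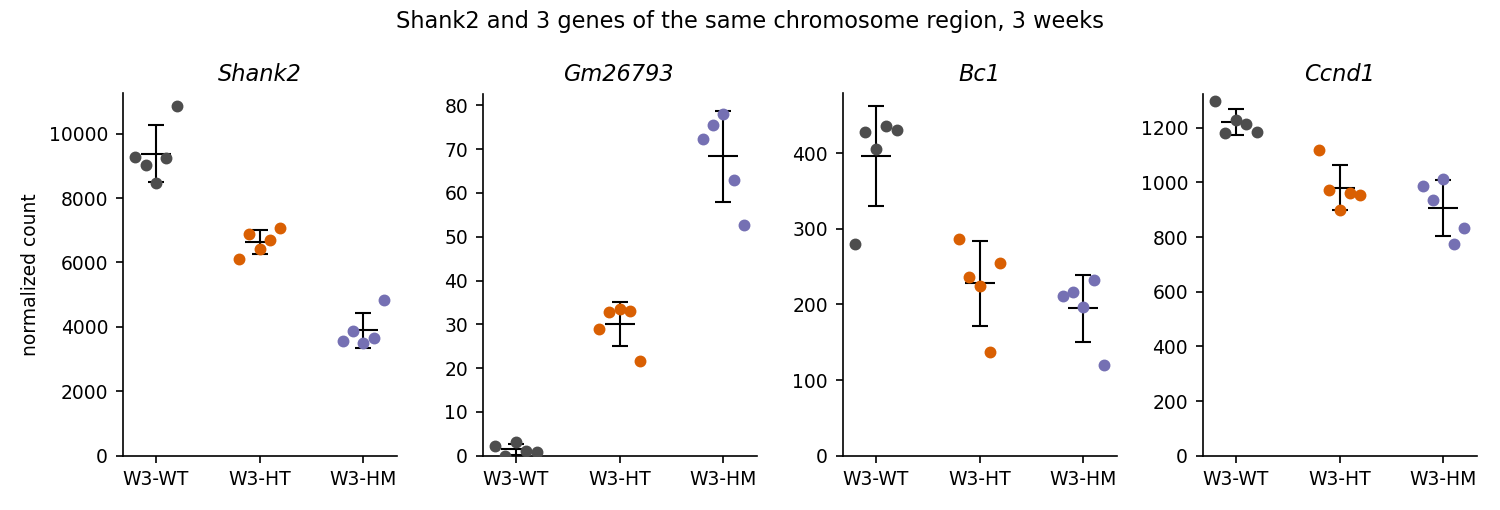
Normalized counts of *Shank2*, *Gm26793*, *Bc1* and *Ccnd1* in each of the 5 W3-WT, 5 W3-HT and 5 W3-HM mice; each point is a mouse, the long tick the mean and the bar the SD. W3-HT mice lie below W3-WT mice for *Shank2* and *Ccnd1* and above them for *Gm26793*, and for *Bc1* the groups overlap by 1 wild-type mouse with 280.

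Of the 22 other genes tested within 1 Mb of its start, 1 was higher and 2 were lower at an unadjusted *p* value under 0.05, and these were *Gm26793*, *Bc1* and *Ccnd1*. The next genes downstream are *Cttn*, which encodes the actin-binding protein cortactin, a partner of Shank proteins, and *Ppfia1*, which encodes liprin-alpha-1. Their log2 fold changes were -0.04 (SE 0.05) and -0.04 (SE 0.13). Of the 75 genes between 1 and 5 Mb away, 3 were higher and 7 lower at an unadjusted *p* value under 0.05, against 3.91% higher and 3.65% lower of all genes tested. Of the lower ones, 3 start close to each other, at -1.628 to -1.495 Mb from the *Shank2* start. *Ifitm10* had a log2 fold change of -0.23 (SE 0.08), *Lsp1*, which encodes an actin-binding protein of leukocytes, -0.32 (SE 0.15), and *Prr33* -0.62 (SE 0.25), with adjusted *p* values of 0.601, 0.656 and 0.64 in limma. *Mrgprf*, 1.299 Mb downstream, had 0.46 (SE 0.19, limma, adjusted *p* = 0.64). These 4 genes were chosen after their values were seen. The region as a whole leaned downward, with a median log2 fold change of -0.044 over 98 genes against -0.003 over all genes tested. Without wild-type mouse 5 this median was -0.018.

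**Figure D2:**
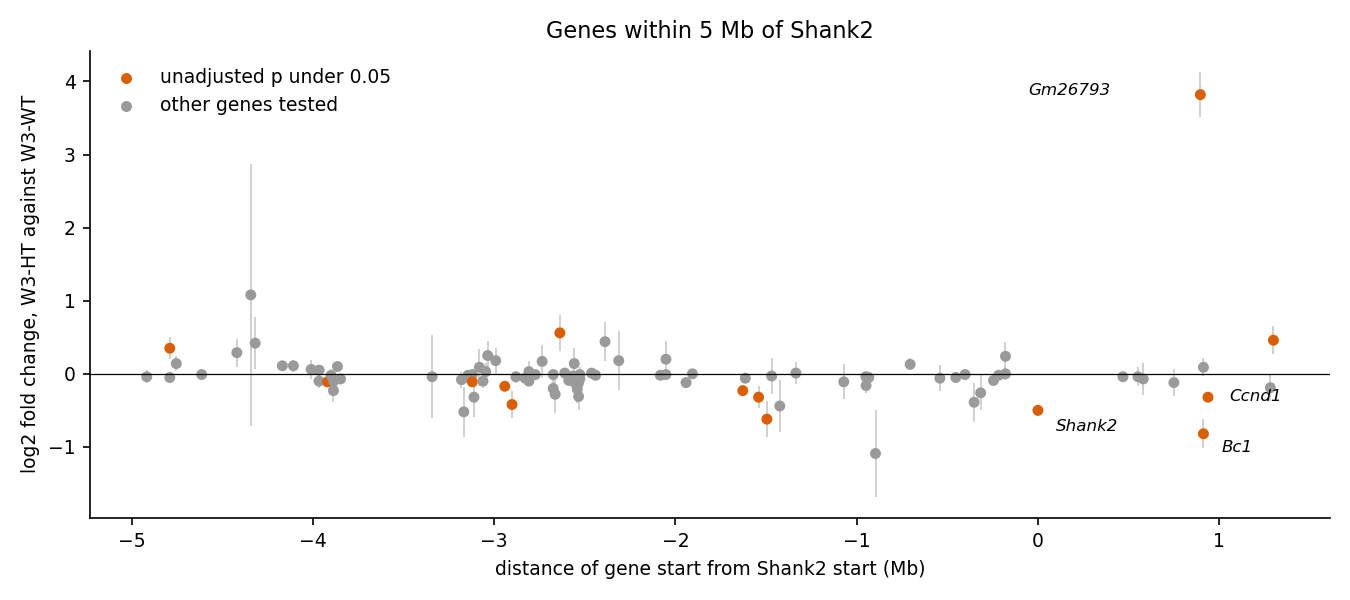
Log2 fold change of W3-HT against W3-WT mice (vertical axis, bars ± SE) of the 98 genes tested within 5 Mb of *Shank2*, by the distance of each gene start from the *Shank2* start in Mb (horizontal axis). Genes with an unadjusted *p* value under 0.05 are orange; *Gm26793* stands at 3.82, and *Bc1* and *Ccnd1* lie at -0.82 and -0.32 at nearly the same distance.

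Over all genes tested, at an unadjusted *p* value under 0.05, 667 genes were higher (3.91% of those tested) and 622 were lower (3.65%) in W3-HT mice. In 105 genes (0.616%) every W3-HT mouse was above every W3-WT mouse, and in 107 genes (0.628%) every W3-HT mouse was below. The quartiles of the log2 fold change over all genes were -0.075 and 0.074. Without wild-type mouse 5, 458 genes were higher and 390 lower at that *p* value.

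The study lists 7 further genes for this comparison, which it chose on these same mice, so their direction here is no independent evidence. In 7 of 7 the groups did not overlap, with adjusted *p* values from 0.478 to 0.601 in limma. The gene *4931414P19Rik*, of unknown function, was measured at 66.0, 91.0, 82.2, 103 and 75.2 in W3-WT and at 167, 179, 126, 134 and 140 in W3-HT mice (log2 fold change 0.83, SE 0.18). *Cp*, which encodes the copper-binding ferroxidase ceruloplasmin, was measured at 358, 317, 342, 292 and 350 in W3-WT and at 542, 483, 441, 378 and 453 in W3-HT mice (0.46, SE 0.10). In W3-HM mice *Cp* ranged from 305 to 402, and W3-HT mice were higher than these by 0.45 (SE 0.10, limma, unadjusted *p* = 0.000259, adjusted *p* = 0.165).

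*Cep350*, which encodes a centrosomal protein, was measured at 1660 to 1829 in W3-WT and at 1861 to 2352 in W3-HT mice (0.29, SE 0.06). *Sbno1*, a homolog of the fly gene strawberry notch, was measured at 5041 to 5834 in W3-WT and at 6126 to 6466 in W3-HT mice (0.21, SE 0.05). *Clock*, a core transcription factor of the circadian clock, was measured at 2924, 3032, 2965, 3007 and 2983 in W3-WT and at 3216, 3414, 3534, 3572 and 3416 in W3-HT mice (0.20, SE 0.04). Its wild-type mean was 2982 with an SD of 41.4, and each W3-HT mouse was above each wild-type mouse. *Nfib*, a transcription factor of forebrain development, was measured at 3204 to 3453 in W3-WT and at 3553 to 3760 in W3-HT mice (0.14, SE 0.03). *Mdp1*, which encodes a magnesium-dependent phosphatase, is the member that was lower, at 878 to 1002 in W3-WT and 784 to 847 in W3-HT mice (-0.23, SE 0.05).

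Of the genes with the smallest *p* values that the study does not list, the higher ones included synaptic genes. *Stxbp5l*, which encodes tomosyn-2, an inhibitor of vesicle fusion, was measured at 1237 to 1650 in W3-WT and at 1623 to 1956 in W3-HT mice (0.31, SE 0.07). *Cacnb4*, which encodes a beta subunit of voltage-gated calcium channels, was measured at 7640 to 9165 in W3-WT and at 8950 to 10085 in W3-HT mice (0.20, SE 0.05). Both overlapped, each by W3-HT mouse 1. The unclassified transcript *Gm21955* (0.33, SE 0.07) and the pseudogene *Gm10040* (0.57, SE 0.13) did not overlap. Adjusted *p* values of these 4 genes were 0.478 to 0.601 in limma.

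The lower genes included a neuropeptide. *Npy*, the peptide of a class of cortical GABA interneurons, was measured at 1750, 1634, 1831, 1869 and 1859 in W3-WT and at 1603, 1511, 1428, 1608 and 1478 in W3-HT mice, with no overlap (-0.23, SE 0.06, limma, adjusted *p* = 0.601). *Efcab3*, a gene for an EF-hand protein with low counts here, was measured at 29.3, 20.9, 34.4, 21.02 and 32.2 in W3-WT and at 8.31, 4.39, 14.7, 9.10 and 13.7 in W3-HT mice (-1.44, SE 0.35). *Prkrip1*, which encodes a protein of the spliceosome, was measured at 527 to 656 in W3-WT mice and at 588, 403, 415, 349 and 406 in W3-HT mice (-0.44, SE 0.11). Without W3-HT mouse 1, which had 588, *Prkrip1* and *Gm21955* passed the threshold, with limma adjusted *p* values of 0.0472 and 0.0365. *R3hcc1l* (-0.37, SE 0.10) and *Tmub1* (-0.24, SE 0.06) did not overlap, and *3010001F23Rik* (-0.81, SE 0.21) did.

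**Figure D3:**
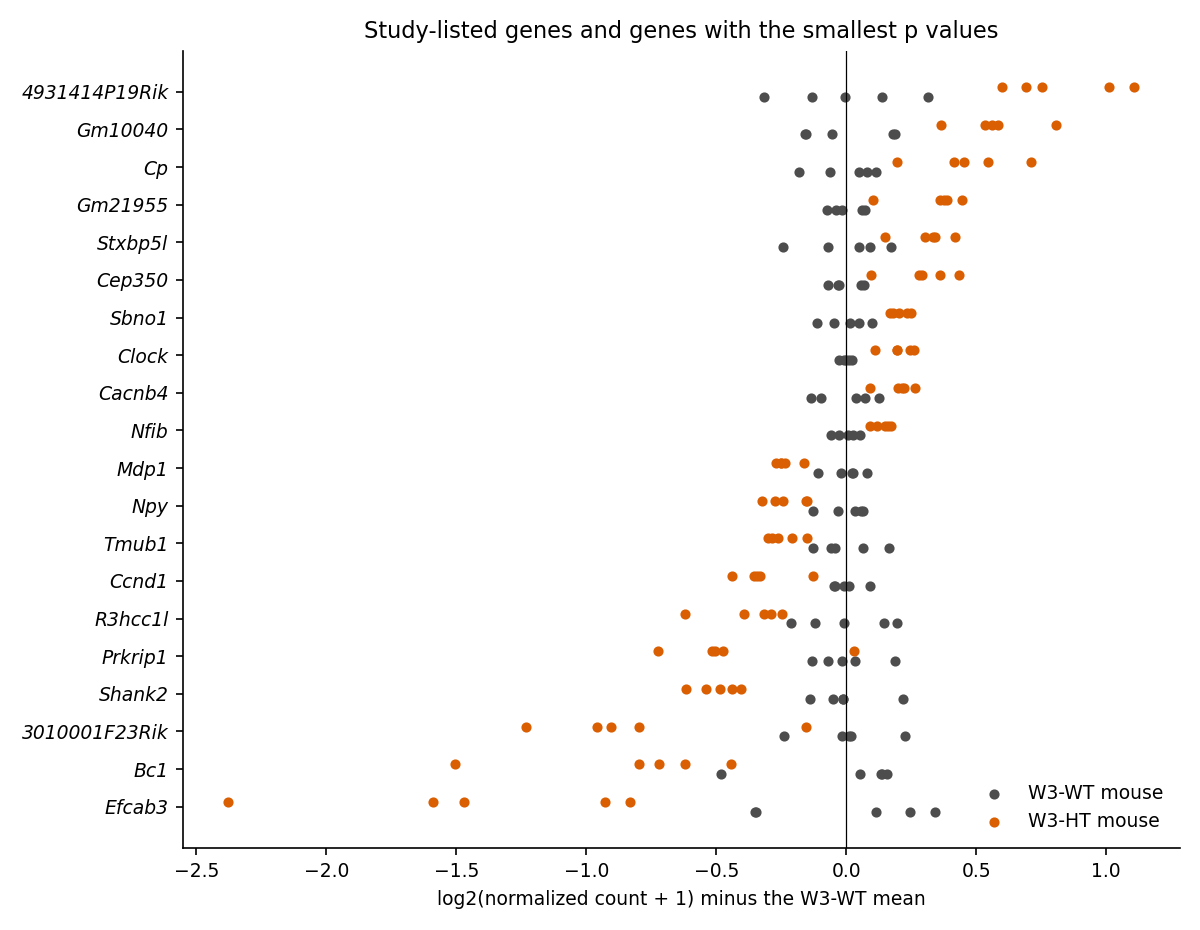
Log2(normalized count + 1) of each W3-WT mouse (grey) and W3-HT mouse (orange), minus the W3-WT mean of the gene, for *Shank2*, the 7 further genes the study lists and the other genes with the smallest *p* values in each direction, *Gm26793* left out for scale. The 5 orange points of *Clock* lie close together and apart from the grey points, whereas *Prkrip1* has 1 W3-HT mouse within the wild-type range.

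Of the postsynaptic density, 26 genes for scaffolds and signalling proteins were tested. Higher in W3-HT mice were 18, of which 3 had an unadjusted *p* value under 0.05, and 0 of the 8 lower ones did, with a median log2 fold change of 0.044. The 3 are 11.5% of the list, against 3.91% of all genes, and 1 to 5 with 1 mouse left out, the fewest without W3-HT mouse 4 and the most without W3-HT mouse 1. The 3 were *Magi2*, a scaffold of the membrane-associated guanylate kinase family (0.14, SE 0.05), *Dlgap2*, which encodes the SAPAP2 link between PSD-95 and Shank (0.14, SE 0.06), and *Lrrc7*, which encodes densin-180 (0.17, SE 0.08). *Magi2* was measured at 3194 to 3673 in W3-WT and at 3592 to 4079 in W3-HT mice, so the groups overlapped.

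Of 17 ionotropic glutamate receptor subunits, 11 were higher, 4 of them (23.5%, against 3.91% of all genes) at an unadjusted *p* value under 0.05, and 0 of 6 lower ones were (median 0.036). *Grin2b*, the NMDA receptor subunit that prevails early in development, was measured at 21534, 21371, 20951, 21163 and 20340 in W3-WT and at 22579, 24665, 25434, 26716 and 21241 in W3-HT mice (0.19, SE 0.06, limma, adjusted *p* = 0.601; exact permutation *p* = 0.0238). Of the W3-HT mice, 4 were above the wild-type range and mouse 5 was within it. *Grik2*, a kainate receptor subunit, had 0.18 (SE 0.07), and *Grin2a*, the NMDA receptor subunit that rises with maturation, 0.15 (SE 0.07). Of 7 metabotropic receptors, 6 were higher. *Grm5*, the receptor tied to Shank by Homer, was measured at 5111 to 6409 in W3-WT and at 6396 to 7782 in W3-HT mice (0.18, SE 0.07). *Grm2*, a presynaptic inhibitory receptor, was lower, at 1805 to 2360 against 1554 to 1979 (-0.22, SE 0.08). Of 14 auxiliary subunits, 0 were higher and 1 was lower at an unadjusted *p* value under 0.05, *Cnih2* (-0.13, SE 0.06), which is 7.14% of that list against 3.65% of all genes.

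Voltage-gated ion channels leaned further upward. Of 32 genes for sodium, potassium and calcium channels, 25 were higher, 9 of them (28.1%, against 3.91% of all genes) at an unadjusted *p* value under 0.05, and 0 of 7 lower ones were, with a median of 0.090. *Cacna1e*, the R-type calcium channel, was measured at 11625, 11215, 10383, 10033 and 8860 in W3-WT and at 11572, 13026, 12804, 12509 and 11216 in W3-HT mice (0.23, SE 0.07). The groups overlapped, with 3 W3-HT mice above the wild-type range. *Scn3a*, a sodium channel of early development, had 0.22 (SE 0.07). Of 16 GABA receptor genes, 12 were higher, and *Gabrb2* alone had an unadjusted *p* value under 0.05 (0.22, SE 0.07), 6.25% of the list against 3.91% of all genes. Of 27 presynaptic genes, 16 were higher, and *Syn3* (0.38, SE 0.14) and *Syt1* (0.09, SE 0.04) were among the 3 with an unadjusted *p* value under 0.05. The 3 are 11.1% of the list, and 0 to 5 with 1 mouse left out, the fewest without wild-type mouse 5. *Dmd*, *Slc8a1* and *Atp2b2*, which the study's text names and which encode dystrophin, a sodium-calcium exchanger and a calcium pump, had 0.15 (SE 0.04), 0.22 (SE 0.06) and 0.14 (SE 0.04) without overlap. The study chose these names on these mice.

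Ribosomal protein genes went the other way. Of 82 genes for proteins of the cytosolic ribosome, 77 were lower in W3-HT mice, 34 of them (41.5%, against 3.65% of all genes) at an unadjusted *p* value under 0.05, and the median log2 fold change was -0.102. In 13 every W3-HT mouse was below every W3-WT mouse, as in 0.628% of all genes. *Rpl13a*, of the large subunit, was measured at 4757, 4823, 4683, 4534 and 4594 in W3-WT and at 4192, 4229, 4244, 4321 and 4315 in W3-HT mice (-0.13, SE 0.04). *Rpl11*, of the large subunit, was measured at 2657, 2771, 2726, 2718 and 2670 in W3-WT and at 2578, 2384, 2412, 2392 and 2550 in W3-HT mice (-0.14, SE 0.04), and *Rpl23* had -0.16 (SE 0.05). Adjusted *p* values of all 3 were 0.601 in limma. Per mouse, the median over the 82 genes of the log2 value minus its wild-type mean was -0.002, -0.034, -0.018, -0.027 and 0.059 in W3-WT mice. It was -0.025, -0.095, -0.160, -0.130 and -0.090 in W3-HT mice, of which mouse 1 was within the wild-type range and 4 were below it.

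The member of this list that was higher at an unadjusted *p* value under 0.05 was *Rps27*, of the small subunit. The study's text names *Rps27* as downregulated in W3-HT mice. It was measured at 47.7, 50.6, 39.7, 40.8 and 40.8 in W3-WT and at 40.3, 45.6, 157, 110 and 120 in W3-HT mice (0.90, SE 0.37, limma, adjusted *p* = 0.64; exact permutation *p* = 0.111). The difference came from 3 W3-HT mice. Ribosomal protein genes have many near-identical copies in the genome, and how reads were divided among them was not tested, so the level of *Rps27* is uncertain.

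Mitochondrial genes also leaned downward. Of 77 mitochondrial ribosomal proteins, 62 were lower, 7 (9.09%, against 3.65% of all genes) at an unadjusted *p* value under 0.05, and 0 of 15 higher ones were (median -0.065). With 1 mouse left out the 7 became 3 to 14, the fewest without wild-type mouse 4 and the most without wild-type mouse 1. *Mrps26* had -0.17 (SE 0.06) and *Mrpl2* -0.15 (SE 0.06). The 10 translation genes the study's text names (*Malsu1*, *Larp4*, *Eif2d*, *Nsun4*, *Mrps5*, *Mrps6*, *Mrps7*, *Mrpl1*, *Mrpl4* and *Mrpl22*) were each higher, with log2 fold changes from 0.03 to 0.30 and unadjusted *p* values from 0.177 to 0.573. Of 80 nuclear-encoded subunits of the respiratory chain and ATP synthase, 74 were lower, 12 (15%) at an unadjusted *p* value under 0.05, and 0 of 6 higher ones were (median -0.081). *Cox7a2l*, a factor of respiratory supercomplexes, was measured at 2698 to 2997 in W3-WT and at 2507 to 2730 in W3-HT mice (-0.15, SE 0.04). The ATP synthase subunits *Atp5j2* and *Atp5e* had -0.18 (SE 0.05) and -0.16 (SE 0.05).

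Of the 13 subunits encoded by mitochondrial DNA, 12 were lower, 3 (23.1%, against 3.65% of all genes) at an unadjusted *p* value under 0.05. *mt-Nd6*, of complex I, had -0.25 (SE 0.08), *mt-Co3*, of complex IV, -0.53 (SE 0.20) and *mt-Cytb*, of complex III, -0.10 (SE 0.05). *mt-Co3* was measured at 71326, 73687, 55525, 30418 and 48554 in W3-WT and at 37791, 44691, 26743, 40262 and 37654 in W3-HT mice, so wild-type mouse 4 was below 4 of the 5 W3-HT mice. Of 37 proteasome subunits, 33 were lower, and *Psmb7* and *Psma7* had an unadjusted *p* value under 0.05, 5.41% of the list. Of 66 translation factors, 45 were lower, and *Eif2b4* and *Eif3e* had an unadjusted *p* value under 0.05, 3.03% of the list. Both shares are near the 3.65% of all genes, and with 1 mouse left out each count ranged from 0 without W3-HT mouse 3 to 8 without W3-HT mouse 1.

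**Figure D4:**
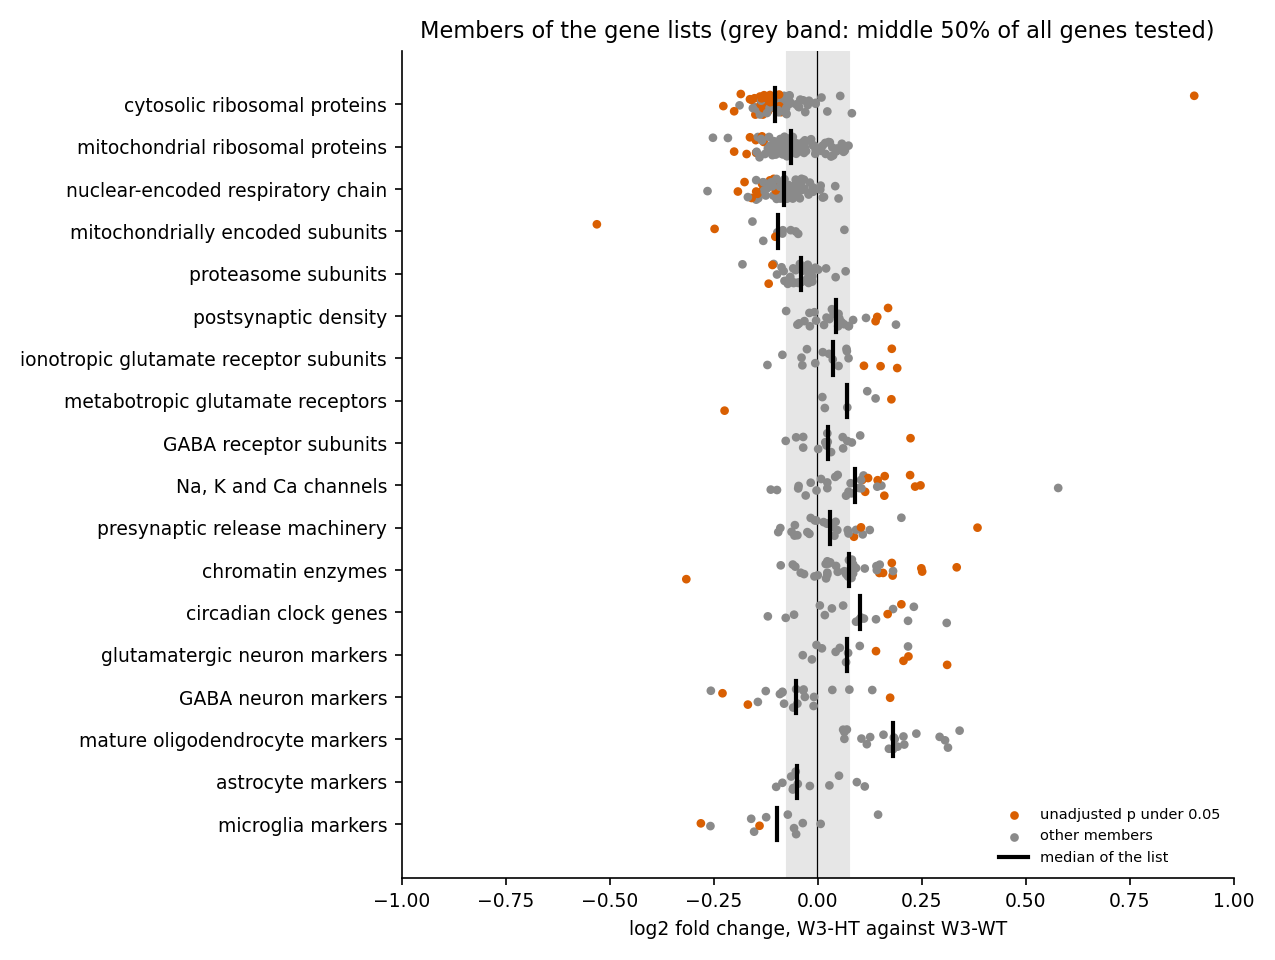
Log2 fold change of W3-HT against W3-WT mice (horizontal axis) for each member of 18 gene lists (rows); orange points have an unadjusted *p* value under 0.05, black bars mark the median of a list, and the grey band spans the quartiles of all genes tested, -0.075 to 0.074. Cytosolic ribosomal proteins lie left with a median of -0.102, with *Rps27* alone at 0.90, and ion channels lie right with a median of 0.090.

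The counts for the synaptic and channel lists varied with the mice included: with 1 mouse left out, 1 to 4 ionotropic glutamate receptor subunits and 4 to 11 ion channels were higher at an unadjusted *p* value under 0.05, the fewest without W3-HT mouse 3 and wild-type mouse 5. Of the cytosolic ribosomal proteins 18 to 44 were lower, the fewest without W3-HT mouse 3 and the most without W3-HT mouse 1. Of the respiratory chain genes 5 to 27 were lower, the fewest without W3-HT mouse 3 and the most without wild-type mouse 1.

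The direction of these lists moved with transcript length. The cytosolic ribosomal proteins had a median length of 1076 bases for the longest annotated transcript and the respiratory chain genes 1026, whereas the ion channels had 8068, against 3239 over all genes tested. Over all genes divided into 5 bins of like size by this length, the median log2 fold change was -0.054 in the bin of shortest transcripts, -0.029, -0.008 and 0.011 in the bins between, and 0.049 in that of the longest. In the shortest bin 7.69% of genes were lower and 1.35% higher at an unadjusted *p* value under 0.05, and in the longest bin 0.91% were lower and 11% higher. The gap between the longest and the shortest bin was 0.050, 0.017, 0.000, -0.019 and -0.064 in W3-WT mice and -0.007, 0.105, 0.155, 0.149 and 0.095 in W3-HT mice. Of the W3-HT mice, 4 were above the wild-type range and mouse 1 was within it. The part of transcript length in the list results was not tested, but values corrected per mouse for length and GC content were computed.

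After that correction 394 genes were higher (2.31%) and 504 were lower (2.96%) at an unadjusted *p* value under 0.05. Of the cytosolic ribosomal proteins 67 were lower, 12 of them at an unadjusted *p* value under 0.05, and the median was -0.053. For the respiratory chain genes the median was -0.029, with 6 lower at that *p* value. The ion channels had a median of 0.035 with 3 higher, the ionotropic glutamate receptors a median of -0.005 with 0 higher, and the postsynaptic density genes a median of 0.002 with 2 higher. *Shank2* had -0.55 and *Gm26793* 3.85, and *Grin2b*, *Dmd*, *Slc8a1* and *Atp2b2* had 0.08, 0.05, 0.10 and 0.08 with unadjusted *p* values of 0.156, 0.308, 0.0301 and 0.082 in limma.

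**Figure D5:**
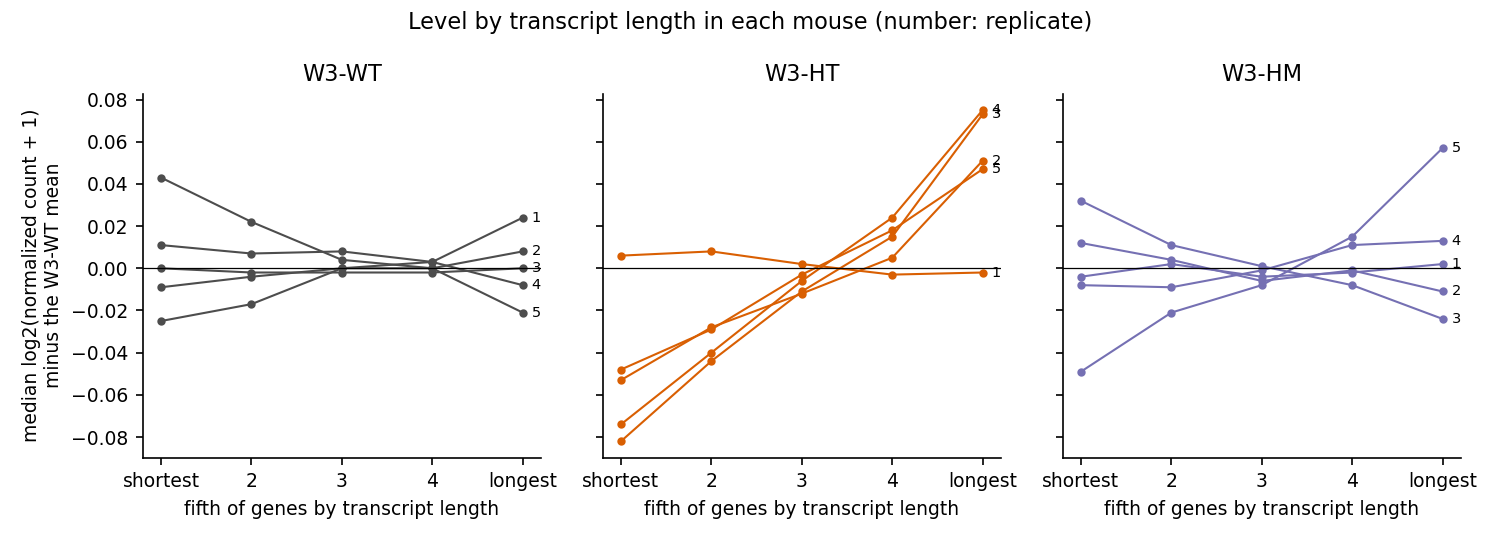
Median of log2(normalized count + 1) minus the W3-WT mean (vertical axis) over genes in each of 5 bins of transcript length (horizontal axis), 1 line per mouse, for the 5 W3-WT, 5 W3-HT and 5 W3-HM mice. In 4 of 5 W3-HT mice the line climbs from the shortest to the longest bin, and in mouse 1 it is flat.

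Genes tied to ASD leaned upward. Of 414 high-confidence genes of the SFARI catalogue of autism genes, 272 were higher, with a median of 0.042. At an unadjusted *p* value under 0.05 in limma, 53 (12.8%) were higher, against 3.91% of all genes. Of the 142 lower ones, 6 (1.45% of the list) had such a *p* value, against 3.65% of all genes. Among the first by *p* value after *Shank2* itself was *Efr3a*, which anchors a phosphatidylinositol kinase at the membrane (0.24, SE 0.06, no overlap). Of 706 mRNAs bound by the fragile X protein FMRP, 461 were higher, with a median of 0.028. At an unadjusted *p* value under 0.05 in limma, 85 (12%) were higher, against 3.91% of all genes. Of the 245 lower ones, 8 (1.13% of the list) had such a *p* value, against 3.65% of all genes. *Shank2* is a member of both lists and is among these lower genes. *Ttbk2*, a tau tubulin kinase, had 0.19 (SE 0.05), and *Slc4a8*, a bicarbonate transporter, 0.22 (SE 0.06), both without overlap. The median transcript lengths of these lists were 5224 and 6316 bases. With 1 mouse left out, 31 to 67 of the SFARI genes were higher at that *p* value, the fewest without wild-type mouse 5, and 52 to 126 of the FMRP targets, the fewest without W3-HT mouse 4. With correction for length and GC content the medians were 0.002 and -0.003. Then 25 of 414 and 26 of 706 genes were higher at an unadjusted *p* value under 0.05, against 2.31% of all genes.

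The lists of genes that differ in the cortex of people with ASD stayed near the background. In the lists named DEG_Down_Voineagu and Co-Exp_Down_M12_Voineagu, which are lower in ASD, 61 of 116 and 185 of 375 genes were higher in W3-HT mice, with medians of 0.011 and -0.002. In DEG_Up_Voineagu and Co-Exp_Up_M16_Voineagu, which are higher in ASD, 40 of 79 and 152 of 330 were higher, with medians of 0.002 and -0.009.

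Chromatin regulators were mostly higher. Of 43 histone methyltransferases, demethylases and remodellers, 35 were higher, 7 (16.3%, against 3.91% of all genes) at an unadjusted *p* value under 0.05, with a median of 0.075. Without W3-HT mouse 1 the 7 became 11. *Chd8*, a helicase mutated in some people with ASD, was measured at 2918 to 3466 in W3-WT and at 3377 to 3660 in W3-HT mice (0.18, SE 0.05). *Kmt2e* had 0.25 (SE 0.07) without overlap and *Ash1l* 0.18 (SE 0.06). *Ezh2*, the methyltransferase of the Polycomb complex, was the 1 member lower at that *p* value (-0.32, SE 0.13). The median transcript length of this list was 7916 bases, and its median was 0.008 with correction for length and GC content. Of 18 circadian genes 15 were higher (median 0.102), and *Clock* and *Rora* (0.17, SE 0.08) had an unadjusted *p* value under 0.05, 11.1% of the list against 3.91% of all genes. Without W3-HT mouse 5 the median was 0.009, and without wild-type mouse 5 it was 0.067.

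Markers of the cell types in the tissue were examined next. Of 20 mature oligodendrocyte markers, 20 were higher in W3-HT mice, but 0 had an unadjusted *p* value under 0.05 in limma, against 3.91% of all genes, and the median was 0.182. *Aspa*, the enzyme that splits N-acetylaspartate, was measured at 257, 196, 227, 225 and 154 in W3-WT and at 237, 263, 316, 270 and 246 in W3-HT mice (0.34, SE 0.16, limma, adjusted *p* = 0.66). *Opalin* had 0.31 (SE 0.16) and *Ermn* 0.29 (SE 0.15). The myelin gene *Mbp* had 0.06 (SE 0.13). Per mouse, the median over the 20 markers was 0.262, 0.021, 0.143, -0.169 and -0.263 in W3-WT and -0.032, 0.234, 0.365, 0.220 and 0.101 in W3-HT mice, so the wild-type range was wider than the difference. The list's transcripts were near average in length (median 2849 bases), and its median was 0.190 with the correction. Of 6 precursor markers 3 were higher, with a median of -0.004.

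Of 14 glutamatergic neuron markers, 11 were higher, and *Slc17a6* (0.21, SE 0.07), *Foxp2* (0.31, SE 0.13) and *Tle4* (0.14, SE 0.06) were among the 4 with an unadjusted *p* value under 0.05. The 4 are 28.6% of the list, against 3.91% of all genes, and 1 to 5 with 1 mouse left out. The log2 fold change of *Slc17a7*, in the same list, was -0.05 to 0.02 with 1 mouse left out. Of 21 GABA neuron markers, 17 were lower (median -0.052), and *Npy* and *Sst* were lower at an unadjusted *p* value under 0.05. These are 9.52% of the list, against 3.65% of all genes, and 1 member (4.76%) was higher at that *p* value, against 3.91%. *Sst*, the somatostatin peptide, was measured at 4409, 4502, 4765, 4872 and 5078 in W3-WT and at 4958, 3866, 4034, 4180 and 4044 in W3-HT mice (-0.17, SE 0.07), with W3-HT mouse 1 alone in the wild-type range. *Nos1*, the nitric oxide synthase of some of these neurons, was higher (0.17, SE 0.08). Of 12 microglia markers, 10 were lower (median -0.098), 2 of them (16.7%, against 3.65% of all genes) at an unadjusted *p* value under 0.05. *C1qb*, a complement subunit, was measured at 989 to 1132 in W3-WT and at 946 to 984 in W3-HT mice without overlap (-0.14, SE 0.05). *Tyrobp*, a signalling adaptor, had -0.28 (SE 0.11). Of 6 mural cell markers, 2 (33.3%, against 3.91% of all genes) were higher at an unadjusted *p* value under 0.05, and the median was -0.005. *Acta2* and *Tagln*, contractile genes of smooth muscle, had 0.61 (SE 0.17) and 0.40 (SE 0.17). Of 12 astrocyte and 9 endothelial markers, 0 had an unadjusted *p* value under 0.05.

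A direct comparison of W3-HT with W3-HM mice, in which the wild-type mice enter only through the shared estimate of the spread, gave 2 genes past the threshold in limma (0.0117% of 17047). They were *Shank2* and *Ppm1l*, which encodes a protein phosphatase. *Ppm1l* was measured at 5759, 5971, 6094, 5985 and 5592 in W3-HT and at 5097, 4873, 4933, 4677 and 4919 in W3-HM mice (0.26, SE 0.04, adjusted *p* = 0.0489), and at 5251 to 5949 in W3-WT mice. At an unadjusted *p* value under 0.05, 993 genes were higher (5.83%) and 795 lower (4.66%) in W3-HT than in W3-HM mice. Of the 20 oligodendrocyte markers 16 were higher at that *p* value, with a median difference of 0.395. Against W3-WT mice, which both comparisons share, these markers had a median of -0.205 in W3-HM mice, with 20 of 20 lower and 5 at that *p* value, beside 0.182 with 0 at that *p* value in W3-HT mice. Of the cytosolic ribosomal proteins 27 were lower and 0 higher, with a median difference of -0.098, and of the ion channels 11 were higher and 2 lower, with 0.095.

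At 12 weeks the comparison can be repeated in other mice, 4 W12-HT against 4 W12-WT. There 27 genes of 17241 (0.157%) passed the threshold, and 1122 (6.51%) were higher and 1134 (6.58%) lower at an unadjusted *p* value under 0.05. *Gm26793* had a log2 fold change of 3.93 (SE 0.34), *Shank2* -0.60 (SE 0.09), *Bc1* -0.99 (SE 0.19) and *Ccnd1* -0.73 (SE 0.13), with adjusted *p* values of 0.000129, 0.0217, 0.0551 and 0.046 in limma. *Npy* had -0.39 (SE 0.05, adjusted *p* = 0.0144). Of the genes the study lists, *4931414P19Rik* had -0.08 (SE 0.25) and *Mdp1* -0.00 (SE 0.06). *Cp* had 0.16 (SE 0.16), *Clock* 0.13 (SE 0.06) and *Cep350* 0.10 (SE 0.07), each higher as at 3 weeks. The 12-week values of *Sbno1* and *Nfib* are not given here. *Prkrip1*, which was lower at 3 weeks, had 0.17 (SE 0.12). Of the cytosolic ribosomal proteins 59 of 82 were lower at that *p* value (median -0.163), and of the oligodendrocyte markers 0 were higher and 2 lower (median -0.189). The gradient with transcript length was present at 12 weeks too, with a median of -0.060 in the shortest and 0.058 in the longest bin.

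Of the 667 genes higher at 3 weeks at an unadjusted *p* value under 0.05, 658 were tested at 12 weeks, where 499 were higher (75.8%). Of these 144 had an unadjusted *p* value under 0.05, and 8 genes were lower at that *p* value. Of the 622 lower genes, 619 were tested and 453 were lower (73.2%), 117 at that *p* value, and 11 were higher at it. Over all 16829 genes tested at both ages, 8415 were higher and 8414 lower at 12 weeks. The gradient with transcript length was present at both ages, and its part in this agreement was not tested. The difference between the heterozygous effects at the 2 ages was tested directly in a fit of all 27 mice. It gave 0 genes past the threshold in limma and 994 (5.83%) at an unadjusted *p* value under 0.05. That share is near the one expected at this *p* value without any difference. *Prkrip1*, *Mdp1*, *4931414P19Rik* and *Ccnd1* were among the 994, with unadjusted *p* values of 0.0018, 0.00412, 0.00703 and 0.0142 and adjusted *p* values of 0.705, 0.705, 0.718 and 0.747. These genes were named by their 3-week differences, in mice that also enter this test, so their *p* values are not independent of that choice.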

How the data were processed

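The authors estimated abundance with Salmon against GRCm38, allowing for GC bias, imported it per gene through tximport and scaled it in DESeq2. The submitters' processing notes name Salmon 1.1.0, R 3.6.2 and DESeq2 1.26.0. The deposited values are this normalized signal, 1 column per mouse, scaled over all 27 mice together. Only values of 0 were whole numbers (0.328%), which left no read counts to recover and no count test to run, and the depth per sample is unknown.

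Groups came from the sample labels. Log2(value + 1) was fitted with limma 3.58.1 (R 4.3.3) with a variance trend, in the 15 mice aged 3 weeks, over genes with a mean of at least 10 in the 10 W3-HT and W3-WT mice, with Benjamini–Hochberg adjustment. The fit was tested on simulated data of 17047 genes with 200 changed genes, and recovered 89 of 100 changes of 0.75 and 98 of 100 of 1.5 on the log2 scale, with 9 false calls. The changed genes were drawn from those with higher means. Smaller changes, such as most of those reported here, were not simulated. Noise was drawn for each gene on its own, without a gradient shared between genes. Lists were described by counts and medians, with no test. Annotation and transcripts came from GENCODE M21, in which 18744 of the genes had an entry. Tables and figures were made in Python 3.11.15.

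The genes and lists were chosen with earlier results of these data known. Genes named were the Shank family, those the study lists or names for this comparison, those past the threshold, the 10 smallest *p* values in each direction, the 3 smallest in each list and all members of lists of up to 7, and genes within 1 Mb of *Shank2*. *Arc*, *Drd2*, *Slc17a7*, *Mbp*, *Ezh2*, *Ppm1l*, *Ifitm10*, *Lsp1*, *Prr33* and *Mrgprf* were chosen after their values were seen. One alternative, testing protein-coding genes alone, was chosen after seeing the data; the others covered the log offset, the filter, the mice fitted, scaling, weights, a length and GC correction, the replicate block and each mouse left out. Some results for single genes are left out here.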

Additional observations from a re-analysis of the deposited data

Results flagged for a closer look

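Of 272 groups of 5 mice (96 genes and 40 lists, each in W3-WT and W3-HT mice), 15 held a mouse far from the other 4 by Dixon's ratio, the gap to the nearest mouse divided by the range of the group, with a critical value of 0.71. By chance about 1 in 20 groups would, here 14.

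Wild-type mouse 5 was the lowest of its group for *Magi2* (3194 normalized counts, ratio 0.840), *Slc8a1* (7427, 0.825), *Efr3a* (2829, 0.740), *Grm5* (5111, 0.735) and *Ttbk2* (2988, 0.733). Each of these genes was higher in W3-HT mice, so leaving it out lowers each difference. Wild-type mouse 1 was the lowest for *Bc1* (280, 0.837), *Mrpl1* (269, 0.779) and the presynaptic list (median of -0.062, 0.775). Wild-type mouse 2 was the lowest for *Dmd* (1906, 0.739), and wild-type mouse 4 for the glucocorticoid-responsive list (-0.309, 0.763).

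W3-HT mouse 1 was the lowest of its group for *Gabrb2* (4166, 0.754) and *Gm21955* (1396, 0.75). W3-HT mouse 4 was the lowest for *mt-Nd6* (17970, 0.792). W3-HT mouse 5 was the lowest for the ionotropic glutamate receptor list (-0.042, 0.774) and for the choroid plexus markers (-1.252, 0.793), of which 3 of 6 were tested.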

How the results depend on the processing

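The count of DEGs was 1 in the reported fit. It was 2, *Gm26793* and *Shank2*, with the 10 mice alone, all 27 mice, quantile normalization, median ratio scaling, sample weights, length and GC correction, or the replicate block, and 2 at an adjusted *p* value under 0.1. It was 0 with a mean of at least 100 and with protein-coding genes only, neither of which includes *Gm26793*, with 1045 and 1133 genes at an unadjusted *p* value under 0.05 in limma. Leaving out 1 mouse at a time gave 1 to 3, the latter without W3-HT mouse 1.

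The log2 fold change of *Shank2* past the threshold was -0.50 with the 10 mice alone, all 27 mice (adjusted *p* = 0.0249), median ratio scaling (0.0352) or the block, -0.52 with quantile normalization (0.0169), -0.45 with sample weights (0.0127) and -0.55 with length and GC correction (0.00228), all in limma. Genes at an unadjusted *p* value under 0.05 numbered 1289, and 848 to 1837 without 1 mouse, with the fewest without wild-type mouse 5. Of these 622 were lower, and 390 to 883 without 1 mouse. With length and GC correction 394 genes were higher, against 667 without it. List medians moved by more than the wild-type SD with this correction for cytosolic ribosomal proteins (-0.053), ionotropic glutamate receptors (-0.005), postsynaptic density (0.002), presynaptic (-0.005) and chromatin genes (0.008), SFARI genes (0.002) and FMRP targets (-0.003). Without 1 mouse the SFARI median was 0.036 to 0.051. The cause was not tested, other than that the correction removes what goes with length and GC content.

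The sign of *Shank3* turned with quantile normalization (-0.01) and length and GC correction (-0.02), and was -0.03 to 0.07 without 1 mouse. That of *Mrpl1* turned without wild-type mouse 1 (-0.02 to 0.08). That of *Slc17a7* (-0.01) turned with sample weights and with length and GC correction (both 0.00), and was -0.05 to 0.02 without 1 mouse. The other 93 of the 96 named genes kept their sign in each alternative in which they were tested.

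The replicate numbers were not taken to pair the mice, since not every pair correlated above 0.1. Correlations of deviations between mice of the same number were -0.0263, -0.0118, -0.0102, 0.0907 and 0.0596 for W3-HT and W3-WT, 0.251, 0.0678, -0.00804, 0.218 and 0.28 for W3-HM and W3-WT, and 0.00581 to 0.143 for W3-HM and W3-HT. With the number as a block, *Shank2* had -0.50 (adjusted *p* = 0.000585), DEGs numbered 2, and 1518 genes were under 0.05 before adjustment.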
